A study of Arabidopsis thaliana with 2 samples.

Results

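The results concern local alternative 5′ splice sites in embryos of the thale cress Arabidopsis thaliana. An event of this kind pairs 2 splice sites at the end of one exon, both joined to the same next exon. The alternative 5′ table that the authors deposited lists 70 events. Local events were those in which the longer exon and the next exon lie at most 10000 bases apart, and 7 such events of KAT5, STK, THO2, TAF2 and PTM were not included here. The remaining 32 events are listed under 29 genes, of 270 splicing events in the 4 tables of the series. Their gaps ran from 68 bases in AT5G65740 to 799 bases in AT3G27990, while the smallest gap beyond the limit was 11558 bases, in AT4G14960. The mutant is lefko, in the Col-0 ecotype and labelled lefko1 on the sample and lefko2 in the tables and the series title. It was set against the wild type of the same ecotype. RNA came from embryos dissected out of siliques between the globular and the heart stage, from plants that had been moved to pots after seedling growth on sucrose medium, and the source of both samples is labelled as seeds. Each genotype is 1 sample, so no difference below has a replicate check. No label gives the mutated gene, the kind of allele or the number of plants pooled, and the tables hold no expression values against which the embryo label could be checked.

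At a 5′ splice site the exon ends and the intron begins, nearly always with the bases GT. The U1 small nuclear ribonucleoprotein finds the site by pairing its RNA with the last bases of the exon and the first of the intron, and SR proteins help to choose between competing sites. Moving the site downstream lengthens the exon. In a coding exon this adds codons or shifts the reading frame, and a stop that comes well before the last exon junction can send the transcript to nonsense-mediated decay. In a 5′ UTR it changes the leader of the mRNA and can add or remove upstream open reading frames.

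Paired sites that lie a few bases apart can be read in one stretch. The pairs in coding exons below are printed because their sequence shows how close and how alike competing sites can be. Sequences are from the TAIR10.1 RefSeq assembly, 5′ to 3′ on the transcribed strand, with the first 2 intron bases of each site in capitals, the upstream (short-exon) site first.
AT3G13800, sites 4 bases apart (chromosome 3, 4539060 to 4539079): aatccaGTggGTatatctat
AT1G05030, sites 11 bases apart (chromosome 1, 1439481 to 1439507): cacgagGTcatgttaagGTtgctttta
ATMAP4K ALPHA1, sites 12 bases apart (chromosome 1, 19817219 to 19817246): aactagGTtggataaatgGTtggataaa
AT5G58510, sites 13 bases apart (chromosome 5, 23650398 to 23650426): tgacagGTgaacttagcaaGTgagagctc
AT1G68710, sites 14 bases apart (chromosome 1, 25795376 to 25795405): tattggGTatcattttctggGTatcacctt
AT1G23970, upstream site (chromosome 1, 8483091 to 8483115): aaacacgaagGTgacttacttgaag
AT1G23970, downstream site 15 bases on (8483076 to 8483100): ttacttgaagGTgacttgttttctt

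Over the window of 3 exon and 6 intron bases that faces U1, the sites of AT1G68710 and of AT1G23970 were equal at all 9 bases, and those of ATMAP4K ALPHA1 at 7. Among the 32 pairs 7 had 7 or more equal bases and 15 had 4 or fewer. Further sites of the events with the largest differences or the most reads are printed next, and those of AT1G54217 were added for their unusual intron start.
TMT2, upstream site (chromosome 4, 16799599 to 16799623): aaaaaaaaaaGTattcatttttata
TMT2, first downstream site (16799441 to 16799465): ccaattccaaGTtgctaaccctagt
TMT2, second downstream site (16799410 to 16799434): ctctctctctGTatatcatattctc
AT5G57300, upstream site (chromosome 5, 23210998 to 23211022): tctcagagctGTgagtcgataaaat
AT5G57300, downstream site (23210860 to 23210884): ttcctttccgGTgagtcggtggatt
AT1G54217, upstream site (chromosome 1, 20245386 to 20245410): tatctcagagGCaagtttctttgaa
AT1G54217, downstream site (20245360 to 20245384): aacttttctgGTgatttttttgtcc
AT1G69840, upstream site (chromosome 1, 26295688 to 26295712): ttgctaatagGTaatttcgcggaat
AT1G69840, first downstream site (26295575 to 26295599): ttctctccaaGTgtgttaatttctc
Event listed under SKL1, upstream site (chromosome 3, 9911592 to 9911616): agagagagagGTacctcttgcttct
SKL1-listed, site 192 bases on (9911400 to 9911424): tgcgtcatcgGTgcgtcttttcatg
SKL1-listed, site 734 bases on (9910858 to 9910882): gatgattaagGTtaacagtctagca
TRFL6 exon, upstream site (chromosome 1, 27351237 to 27351261): tacagaccagGTaaagtctcgatct
TRFL6 exon, downstream site 18 bases on (27351255 to 27351279): tcgatctgagGTtagtaccagttca
AT3G27990, upstream site (chromosome 3, 10396666 to 10396690): tcctttccagGTattacttgagtca
AT3G27990, downstream site (10393985 to 10394009): ccaacaaaagGTtttgacatgactg
AT4G14385, upstream site (chromosome 4, 8288064 to 8288088): atcaccagctGTatgttttagacaa
AT4G14385, downstream site (8287502 to 8287526): ggaagagaagGTaagccctgcagca
AT3G49645, upstream site (chromosome 3, 18404688 to 18404712): tcaccactacGTacgtctctcgtga
AT3G49645, downstream site (18404351 to 18404375): ttatgacagtGTaaatttattgttt
AT3G03180, upstream site (chromosome 3, 733552 to 733576): gacctaaaaaGTaagtgttccaatc
AT3G03180, downstream site (733748 to 733772): catggggaacGTaggtctatttata

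The paired sites were both GT in 31 of the 32 events, and the upstream site of AT1G54217 was GC. Among all 131187 distinct annotated nuclear 5′ splice sites, 98.5% were GT.

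For each event the table gives reads that include the added segment and reads that skip it, each as 3 whole numbers joined in 1 cell. No label says whether these are cultures, libraries or sequencing runs, so they were summed, and the 3 joined values are given as a spread. The long-exon share is the percentage of summed reads that include the segment. A longer segment can collect more including reads, so a share compares the genotypes for 1 event and does not give the true mix of transcripts. Events had 7 to 1054 reads in the mutant (median 41) and 17 to 1363 in the wild type (median 78), with a median ratio of mutant to wild type of 0.533. Intervals are exact Clopper-Pearson intervals at 95% and cover counting error only, since reads are not known to be independent molecules. Where a count was 0, the limit it allows is also given as 3 reads of the total, a simpler rule whose value differs a little from the exact interval. Fisher's exact test (two-sided) on the summed reads, Benjamini-Hochberg adjusted over all 70 events, compares the 2 samples and not the genotypes.

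The long exon was used more in the mutant in 17 local events and less in 15. With Fisher's exact test at an adjusted p under 0.05, 11 rose and 14 fell, and the other 7 did not pass. The events are not all separate, since the 32 rest on 28 distinct sets of skipping reads. With 1 event per gene, 16 were higher and 12 lower. Over all 70 events 90% passed, 58.6% as higher and 31.4% as lower, and 67.1% had a higher share in the mutant. The authors listed only events past their own threshold, so a large passing fraction is how the table was made and no result about the local events. The 3 mutant values lay wholly above or below the 3 wild-type values in 17 of the 32 events (53.1%), against 55.7% of the table. The median difference, mutant minus wild type, was 5.01 percentage points over the local events and 11.5 over the whole table. Single differences ran from -45.5 points in AT2G37840 to 67.2 points in AT5G57300.

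**Figure D1:**
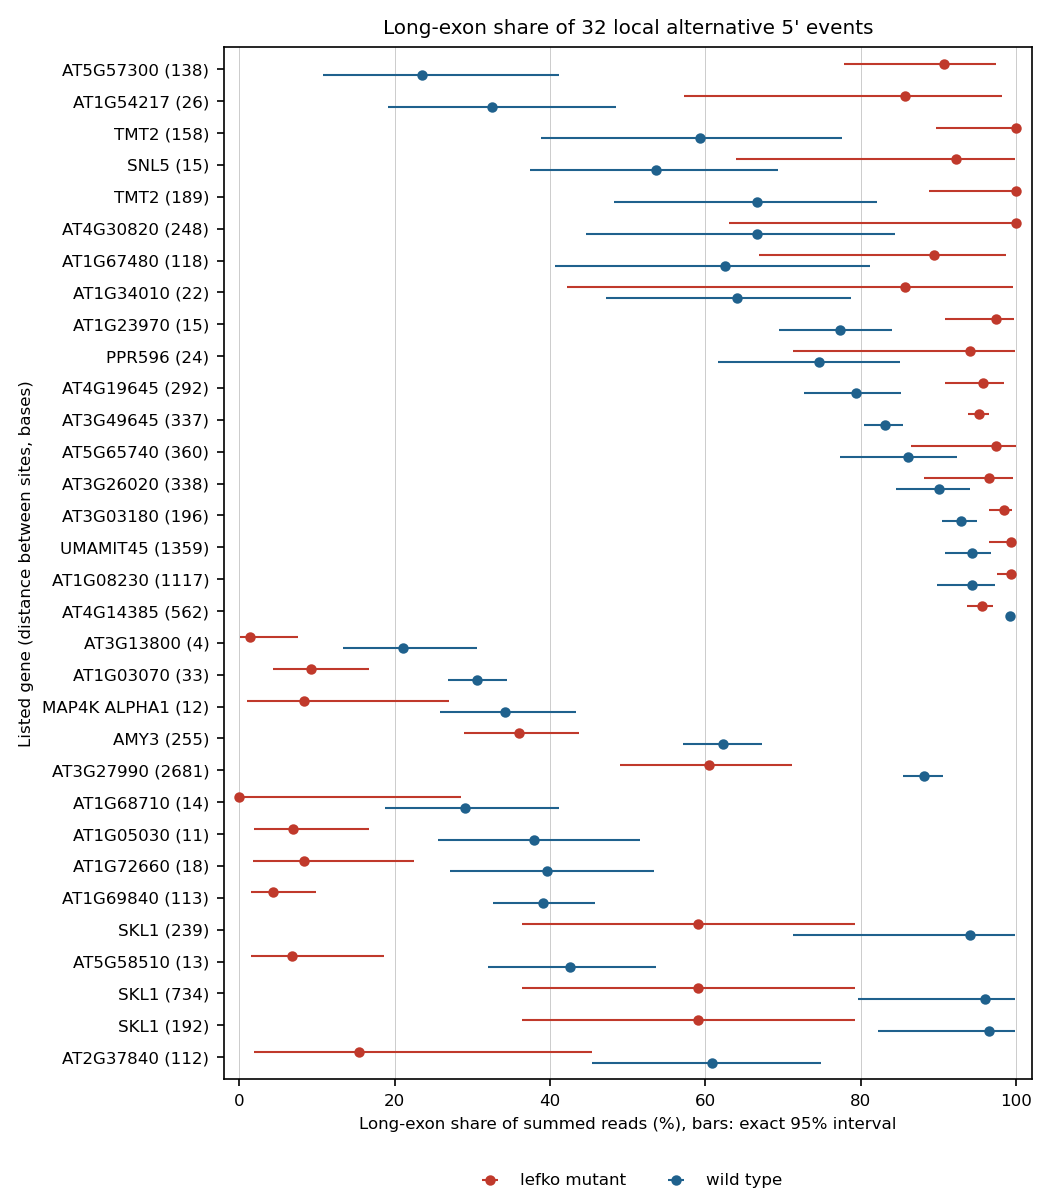
Long-exon share (x axis, percent of summed reads) of the 32 local events in the lefko mutant (red) and the wild type (blue), with exact 95% intervals, ordered by the difference; the number beside each listed gene is the distance between its sites in bases. Shares in the mutant lie above 90% in 15 events and under 10% in 8.

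In the mutant the long-exon share was above 90% in 15 events and under 10% in 8, whereas in the wild type it was above 90% in 8 and under 10% in none. Relative to the wild type it lay farther from an even split in 27 of the 32 events and closer in 5, and over the whole table it lay farther in 60 of 70. The 5 exceptions were the 3 events listed under SKL1, the non-coding gene AT3G27990 and AT4G14385. In 4 events the share crossed 50%: AT5G57300 and AT1G54217 upward, AT2G37840 and 1 event of AT1G69840 downward. The mutant also had fewer reads per event at the median, and whether depth has a part in this pattern was not tested.

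Distances between the paired sites ran from 4 to 2681 bases, with a median of 148. In 12 events the sites were 4 to 33 bases apart and in 20 events 112 to 2681 bases, with no distance in between; the limit of 40 bases that separates them was set after the values were seen. By the annotation 18 events lie in a 5′ UTR, 13 in coding sequence and 1 in a non-coding transcript. Coding events were closer, with a median distance of 15 bases, than those of the 5′ UTR, with 190.5. The distance was a multiple of 3 in 12 of 32 events (37.5%, interval 21.1 to 56.3), with 6 of 13 among coding events (46.2%, 19.2 to 74.9). Segments held 37.0% G and C at the median. Both exon junctions were annotated in 22 events, while the junction of the downstream site was not in 5 and that of the upstream site was not in another 5. In 9 events the segment contained a whole annotated intron, which the long exon keeps. Including reads there can also come from transcripts that remove this intron and use the downstream site. These are the events of AT3G49645, AT4G30820, AT3G27990, AT4G14385, UMAMIT45, AT5G65740, AT3G26020 and AT3G03180, and the 734-base event listed under SKL1.

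**Figure D2:**
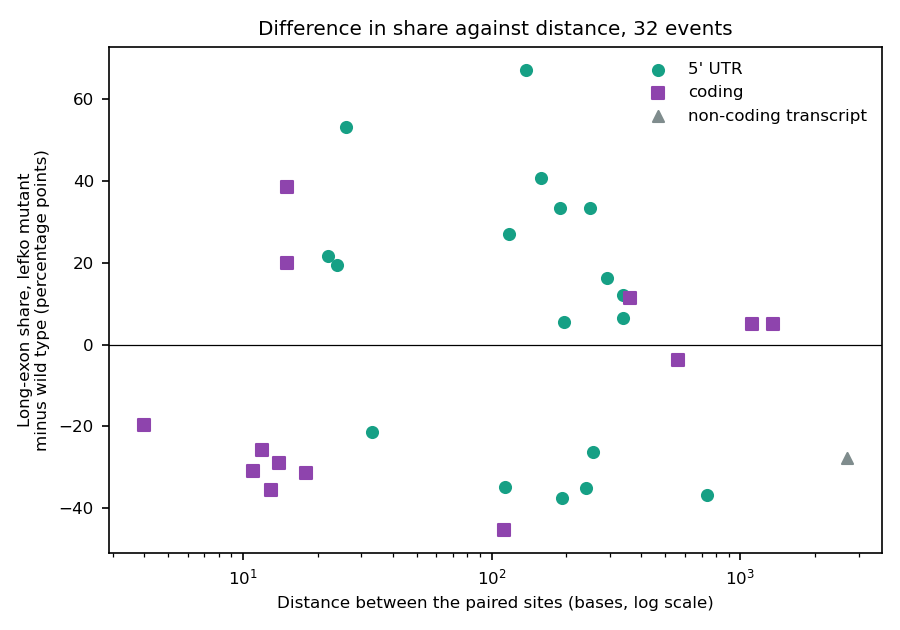
Difference in long-exon share, lefko mutant minus wild type (y axis, percentage points), against the distance between paired sites (x axis, bases, log scale), with 1 point per event and colours for the place. Of the 8 coding events with sites under 40 bases apart, 6 lie under the zero line.

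Of the 8 close pairs in coding exons, 6 had a lower long-exon share in the mutant, 5 of them past Fisher's exact test, and 2 rose. Over all 70 events 31.4% fell past the test. The 6 had wild-type shares of 21.1% to 42.5%, and the 2 that rose had 53.7% and 77.4%. Among all local events, 8 of the 10 with a wild-type share of 50% or less were lower. Of the 22 above 50%, 15 were higher. Whether close coding pairs differ from this general move away from an even split was not tested. In 4 of the 8 the downstream site shifted the frame and gave an early stop, that is, one over 50 bases before the last exon junction, when it was put into the annotated transcript. All 4 had a lower share in the mutant, and 3 fell past the test.

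AT5G58510 encodes the catalytic part of a Rab3 GTPase-activating protein, a regulator of small GTPases in membrane traffic. Its long-exon share was 6.82% in the mutant (interval 1.43 to 18.7, 44 reads), against 42.5% in the wild type (32 to 53.6, 87 reads). The joined values were 23.1%, 0% and 0% in the mutant and 57.8%, 15.8% and 34.8% in the wild type. The sets overlapped, because 1 mutant value exceeded the lowest wild-type value. The log2 odds ratio was -3.14 (adjusted Fisher's exact p = 2.80e-05). Without the first wild-type value the difference was -19.4 points, against -35.7 with it (adjusted Fisher's exact p = 0.0240). With the downstream site the predicted protein would have 540 residues, against 862 with the upstream site.

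AT1G05030, of the major facilitator family of membrane transporters, had 6.90% (1.91 to 16.7, 58 reads) in the mutant, against 37.9% (25.5 to 51.6, 58 reads) in the wild type. Its joined values were 19.0%, 0% and 0% in the mutant and 48.0%, 36.4% and 18.2% in the wild type, which overlap slightly. The fall passed Fisher's exact test (adjusted p = 0.000154) but not without the second mutant value (adjusted p = 0.0516). The predicted proteins have 287 residues with the downstream and 472 with the upstream site.

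AT3G13800, a metallo-hydrolase or oxidoreductase gene, had the closest pair. The long-exon share was 1.39% (1 of 72 reads, interval 0.0352 to 7.50) in the mutant and 21.1% (20 of 95 reads, 13.4 to 30.6) in the wild type, with an adjusted Fisher's exact p of 0.000128. Its joined values were 0%, 4.35% and 0% in the mutant and 24.3%, 23.9% and 0% in the wild type, so the wild-type value at 0% lay among the mutant values. The predicted protein shrinks to 68 residues with the downstream site, against 361 with the upstream one.

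AT1G68710, an ATPase of the E1-E2 type, had 0 of 11 reads in the mutant (interval 0 to 28.5, and 27.3% by the limit of 3 reads) and 29.0% of 69 reads (18.7 to 41.2) in the wild type. The 3 wild-type values were alike, at 28%, 28% and 31.6%, and all 3 mutant values were 0%. Few mutant reads covered it, and Fisher's exact test did not pass (adjusted p = 0.0623). A predicted 762 residues would replace 1200.

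In the other 4 close coding pairs the added bases kept the frame, and they went both ways. ATMAP4K ALPHA1, a kinase gene named for the MAP4K family, gained 4 residues with the downstream site. Its share fell to 8.33% of 24 reads in the mutant (1.03 to 27.0), against 34.2% of 120 in the wild type (25.8 to 43.4; adjusted Fisher's exact p = 0.0157). Joined values were 0%, 28.6% and 0% in the mutant and 36.2%, 37.3% and 22.7% in the wild type. They overlapped, and without the first mutant value the difference was -11.9 points, against -25.8 with it, and did not pass (adjusted Fisher's exact p = 0.727).

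The event listed under AT1G72660 uses exons of the neighbouring gene TRFL6, named for a relation to telomere-repeat binding factors, and adds 6 residues. Its share fell to 8.33% of 36 reads in the mutant (1.75 to 22.5), against 39.7% of 58 in the wild type (27.0 to 53.4; adjusted Fisher's exact p = 0.00121). Joined values were 18.2%, 0% and 6.67% in the mutant and 50%, 45.8% and 22.2% in the wild type, with no overlap.

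SNL5 and AT1G23970 rose instead. SNL5 encodes a relative of SIN3, the scaffold of histone deacetylase complexes, and the downstream site adds 5 residues. Its share was 92.3% of 13 mutant reads (64.0 to 99.8) and 53.7% of 41 wild-type reads (37.4 to 69.3; adjusted Fisher's exact p = 0.0220). Per joined value, the shares were 100%, 100% and 66.7% in the mutant and 52.0%, 70.0% and 33.3% in the wild type, which overlap. AT1G23970, for a protein of unknown function, also adds 5 residues. It had 97.4% of 76 reads in the mutant (90.8 to 99.7) and 77.4% of 137 in the wild type (69.4 to 84.1; adjusted Fisher's exact p = 7.66e-05). One wild-type value of 92.2% lay inside the mutant range of 90.9% to 100%.

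**Figure D3:**
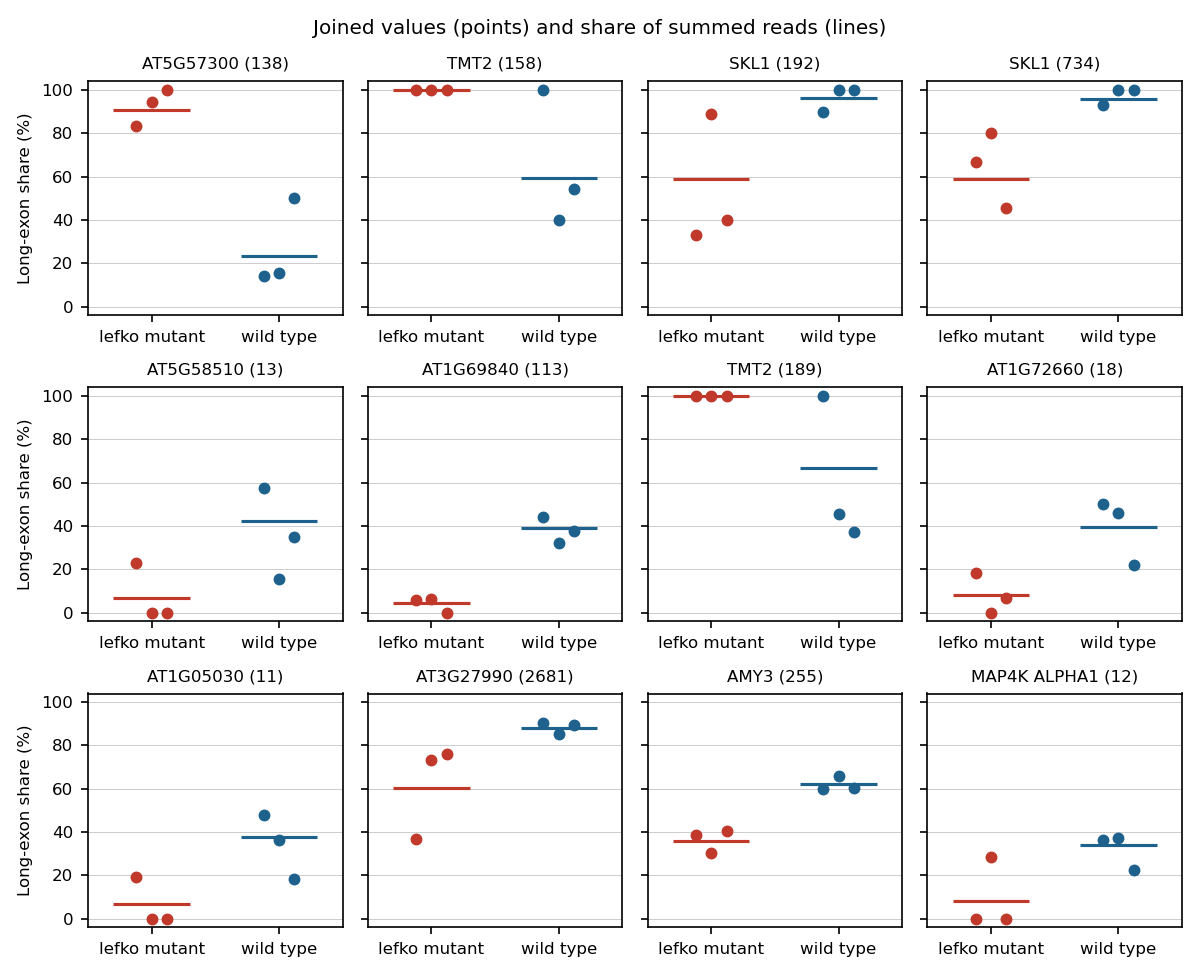
Long-exon share (y axis, percent) of the 12 events with at least 20 reads in each genotype and the largest differences; points are the 3 joined values, lines the share of the summed reads, with the lefko mutant left and the wild type right in each panel. AT5G57300 and both events of the AT1G69840 exon (1 listed under AMY3) show no overlap, whereas both TMT2 events have a wild-type value at 100%.

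Among the 18 events in a 5′ UTR, 12 had a higher and 6 a lower long-exon share in the mutant, and 7 rose and 6 fell past Fisher's exact test. The 6 that fell use exons of 3 genes: AT3G26890 with the 3 events listed under SKL1, AT1G69840 with 2 that have 1 upstream site, and AT1G03070.

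AT5G57300, a gene of the S-adenosylmethionine-dependent methyltransferase superfamily, had the largest difference of all local events. The long exon took 90.7% of 43 reads in the mutant (77.9 to 97.4), against 23.5% of 34 in the wild type (10.7 to 41.2). The joined values were 83.3%, 94.7% and 100% in the mutant and 14.3%, 15.8% and 50% in the wild type. All mutant values lay above all wild-type values, and the log2 odds ratio was 4.77 (adjusted Fisher's exact p = 2.50e-09). Its sites end exons at 23211013 and 23210875 of chromosome 5 on the minus strand, 138 bases apart, and both splice to the exon that starts at 23210654. The junction of the downstream site is not annotated although the site itself is.

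AT1G54217, of the ribosomal protein L18ae family, shifted from its GC site toward the GT site 26 bases downstream. The long-exon share was 85.7% of 14 reads in the mutant (57.2 to 98.2) and 32.6% of 43 in the wild type (19.1 to 48.5; adjusted Fisher's exact p = 0.000964). Its joined values were 80.0%, 100% and 100% in the mutant, above the wild-type values of 21.4%, 31.8% and 57.1%.

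TMT2 encodes a monosaccharide transporter of the tonoplast, the membrane of the vacuole. Its 2 events share the upstream site and the skipping reads. All 34 and all 31 mutant reads included the segment, and 59.3% of 27 (38.8 to 77.6) and 66.7% of 33 wild-type reads (48.2 to 82.0) did. The mutant intervals were 89.7 to 100 and 88.8 to 100, and 3 reads would be a skipping share of 8.82% and 9.68%. Both rose past the test (adjusted Fisher's exact p = 5.46e-05 and 0.000569). Every joined value was 100% in the mutant, and in the wild type they were 100%, 40% and 54.5% for the first event and 100%, 45.5% and 37.5% for the second. One wild-type value thus equalled the mutant in both, and without it the second difference was 57.9 points, against 33.3 with it. In the printed sequence the exon before the upstream site ends in a run of A.

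AT1G69840, for a membrane-associated protein with an SPFH or prohibitin-type domain, used both of its downstream sites less in the mutant. For the site 113 bases downstream the share was 4.35% of 115 reads in the mutant (1.43 to 9.85), against 39.1% of 225 in the wild type (32.7 to 45.8). Joined values were 5.88%, 6.38% and 0% in the mutant and 44.4%, 32.4% and 37.9% in the wild type. For the site 255 bases downstream the share was 36.0% of 172 reads in the mutant (28.9 to 43.7), against 62.3% of 363 in the wild type (57.1 to 67.3). Those joined values were 38.5%, 30.2% and 40.4% in the mutant and 59.9%, 65.9% and 60.4% in the wild type. Both events rest on the same 110 skipping reads in the mutant and 137 in the wild type, so they are not separate evidence. Neither set overlapped, and both falls passed Fisher's exact test (adjusted p = 5.91e-13 and 4.07e-08). The second event is listed under AMY3, an alpha-amylase gene, whose annotated span does not reach these exons.

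**Figure D4:**
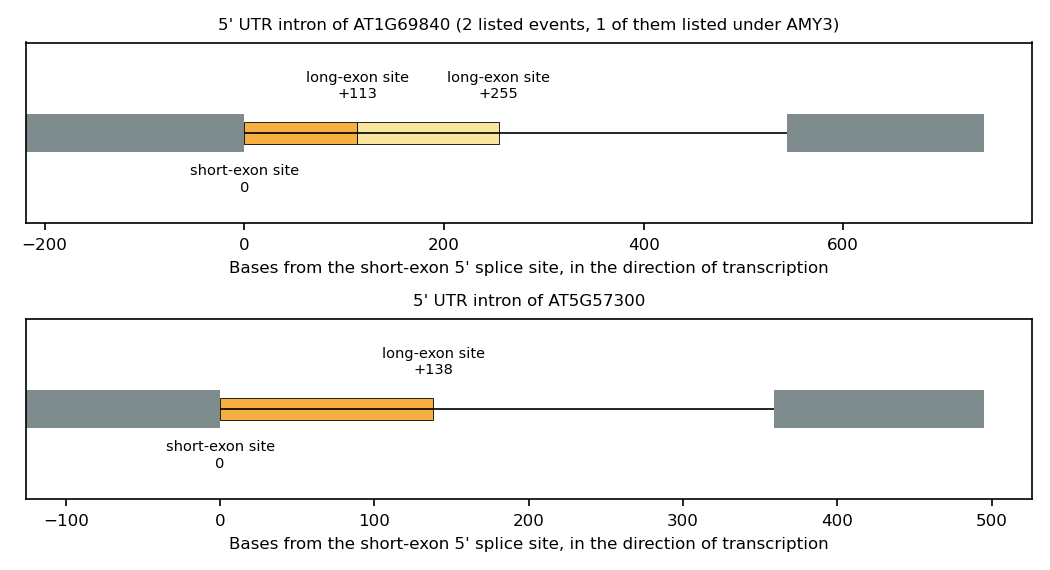
Exons (grey), added segments (orange and yellow) and intron (line) around the paired 5′ splice sites of AT1G69840 and AT5G57300, drawn to scale in bases from the short-exon site (x axis) in the direction of transcription. The long-exon sites of AT1G69840 lie 113 and 255 bases downstream and that of AT5G57300 lies 138 bases downstream.

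The 3 events listed under SKL1, named for a likeness to shikimate kinase, use annotated junctions of AT3G26890, a gene of a meiosis chromosome segregation family, and lie in its 5′ UTR. Their sites at 192, 239 and 734 bases each took 13 of 22 mutant reads (59.1%, 36.4 to 79.3), against 96.6% of 29, 94.1% of 17 and 96.0% of 25 wild-type reads. Each set of joined values separated the genotypes. At the 192-base site the mutant values were 33.3%, 88.9% and 40% and the wild-type values 90%, 100% and 100%. At the 734-base site they were 66.7%, 80% and 45.5% in the mutant and 93.3%, 100% and 100% in the wild type. The 9 skipping reads of the mutant and the single skipping read of the wild type stand behind all 3 events. The falls at 192 and 734 bases passed Fisher's exact test (adjusted p = 0.00165 and 0.00417), but not without the third mutant value (adjusted p = 0.0805 and 0.0882). Those differences were then -21.6 and -23.3 points, against -37.5 and -36.9 with it, while without the second mutant value the 192-base difference was -58.1. The fall at 239 bases had an adjusted Fisher's exact p of 0.0267.

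AT1G03070, or LIFEGUARD 4, is of the Bax inhibitor family, whose members restrain cell death. Its long-exon share fell to 9.18% of 98 mutant reads (4.29 to 16.7), against 30.6% of 599 wild-type reads (26.9 to 34.4; adjusted Fisher's exact p = 4.95e-06). Per joined value, the shares were 25%, 0% and 8.70% in the mutant and 33.5%, 27.0% and 32.6% in the wild type, with no overlap. The intron retention table lists the same gene with a higher retained share in the mutant, 86.5% of 52 reads, against 59.3% of 413 in the wild type.

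AT3G49645, a gene for an FAD-binding protein, had the most mutant reads of the local events. The share was 95.3% of 1054 reads in the mutant (93.8 to 96.5) and 83.1% of 921 in the wild type (80.5 to 85.4; adjusted Fisher's exact p = 1.50e-18). The joined values were 95.8%, 96.6% and 93.9% in the mutant, above the 84.3%, 81.0% and 85.4% of the wild type. AT3G03180, of a Got1 or Sft2-like family of vesicle transport proteins, had 98.4% of 375 reads in the mutant and 93.0% of 540 in the wild type (adjusted Fisher's exact p = 0.000174). Its joined values were tight, from 98.3% to 98.5% in the mutant and from 91.6% to 95.1% in the wild type. AT4G19645, for a TLC domain protein, rose to 95.7% of 140 mutant reads, against 79.4% of 175 in the wild type (adjusted Fisher's exact p = 3.24e-05), also without overlap.

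The other 5 events in a 5′ UTR had higher shares in the mutant that did not pass Fisher's exact test. AT4G30820, for an assembly factor of the kinase that activates cyclin-dependent kinases, had all 8 mutant reads (interval 63.1 to 100; 3 reads would be 37.5% skipping) and 66.7% of 24 wild-type reads (adjusted Fisher's exact p = 0.0851). PPR596, a pentatricopeptide protein of the family that binds organelle RNA, had 94.1% of 17 mutant and 74.6% of 59 wild-type reads (adjusted Fisher's exact p = 0.104). AT1G67480, a kelch repeat gene, had 89.5% of 19 mutant and 62.5% of 24 wild-type reads (adjusted Fisher's exact p = 0.0819). The uncharacterised AT1G34010 had 85.7% of 7 mutant and 64.1% of 39 wild-type reads (adjusted Fisher's exact p = 0.399). AT3G26020, for a regulatory B subunit of protein phosphatase 2A, had 96.6% of 58 mutant and 90.1% of 171 wild-type reads (adjusted Fisher's exact p = 0.172).

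Coding events with sites over 100 bases apart were 5. AT2G37840, a protein kinase gene, had the largest loss, at 15.4% of 13 reads in the mutant (1.92 to 45.4), against 60.9% of 46 in the wild type (45.4 to 74.9; adjusted Fisher's exact p = 0.00618). Its joined values were 0%, 28.6% and 0% in the mutant and 57.1%, 57.1% and 100% in the wild type, without overlap. Its downstream site, 112 bases on, gives a predicted protein of 173 residues in place of 733.

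AT4G14385 carries the domain of a NuA4 histone acetyltransferase subunit and had the most reads in all. It fell to 95.6% of 675 reads in the mutant (93.7 to 97.0), against 99.3% of 1363 in the wild type (98.7 to 99.6; adjusted Fisher's exact p = 1.03e-07). Its joined values were 96.7%, 93.7% and 96.6% in the mutant and 99.4%, 99.1% and 99.4% in the wild type, without overlap. Both translated forms end over 50 bases before the last exon junction, with 129 residues from the downstream and 97 from the upstream site. The segment holds an annotated intron that the long exon keeps, so including reads need not come from the translated long form. The junction of the upstream site is not annotated.

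The transporter gene UMAMIT45 rose to 99.4% of 155 mutant reads, against 94.3% of 264 wild-type reads (adjusted Fisher's exact p = 0.00947). AT1G08230, for a transmembrane amino acid transporter, rose to 99.3% of 287 mutant reads, against 94.3% of 176 wild-type reads (adjusted Fisher's exact p = 0.00216). In each of these genes 1 wild-type value was 100% and the sets overlapped. AT5G65740, a zinc ion binding protein gene, had 97.4% of 39 mutant and 86.0% of 93 wild-type reads (adjusted Fisher's exact p = 0.0692). In all 3 the longer exon carries an early stop, with predicted proteins of 254, 118 and 59 residues, against 299, 451 and 250 from the upstream sites. So of the 8 coding events in which only the downstream site gave an early stop, 5 had a lower and 3 a higher share in the mutant, and 4 fell and 2 rose past the test. The segments of UMAMIT45 and AT5G65740 hold annotated introns that the translated long exon keeps. Their including reads need not come from that form, so their shares do not give the fraction of transcripts with an early stop. In AT1G08230 neither the downstream site nor its junction is annotated. Its retention event has the same skipping reads and nearly the same shares, 99.3% of 287 mutant and 94.35% of 177 wild-type reads. Use of the downstream site is therefore not told apart from retention of the intron there.

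AT3G27990, a non-coding RNA gene, had the most distant pair, 2681 bases apart. Its long-exon share fell to 60.5% of 81 reads in the mutant (49.0 to 71.2), against 88.1% of 641 in the wild type (85.4 to 90.5; adjusted Fisher's exact p = 1.19e-08). Joined values were 36.7%, 73.3% and 76.2% in the mutant, below the wild-type values of 90.4%, 85.2% and 89.4%. Without the first mutant value the difference was -13.6 points, against -27.6 with it, and still passed (adjusted Fisher's exact p = 0.0120).

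Stronger and weaker downstream sites both occurred among events that rose and among those that fell. Each site was scored in bits against the base frequencies of all annotated nuclear 5′ splice sites, whose median score was 6.89. Local upstream sites had a median of 6.24 bits and downstream sites of 5.60 bits, and the median difference within a pair, downstream minus upstream, was -0.24 bits. For the 31 events beyond the gap limit the medians were -8.06 and -9.46 bits, and this difference was not tested. The downstream site was the stronger one in 13 local events, of which 8 had a higher and 5 a lower share in the mutant. Past Fisher's exact test 5 of these rose and 5 fell. It was the weaker one in 17, of which 8 had a higher and 9 a lower share, and 5 rose and 9 fell past the test. In 2 events the scores were equal. AT5G57300 moved to its stronger site, which scored 8.57 bits against 4.04 for the upstream site. TMT2 moved to a weaker one, at 1.46 against 3.43 bits. In AT4G14385 the downstream site, which fell, scored 10.3 bits and the upstream site 4.64. Full pairing with U1 RNA takes 9 bases, CAG at the exon end and GTAAGT in the intron. Upstream and downstream sites each matched 6 or more of these in 17 of 32 events, from 14 and 16 genes. Among all distinct annotated sites 66.0% did so. The local counts and medians are per event, so an upstream site shared by several events is counted more than once.

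**Figure D5:**
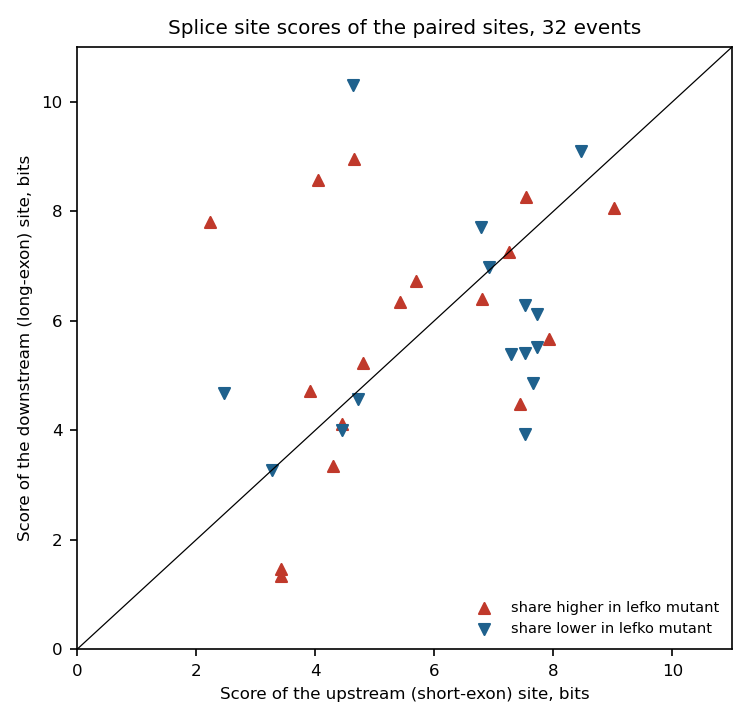
Score of the downstream site (y axis, bits) against that of the upstream site (x axis, bits) for the 32 local events, with red triangles for a higher and blue triangles for a lower long-exon share in the lefko mutant and the line of equal scores. Both colours lie on both sides of the line.

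By annotated product, the largest group was of transport and membrane proteins, with 12 events in 10 genes. In it 6 events had a higher and 6 a lower share, and 6 rose and 5 fell past Fisher's exact test. Over all 70 events, of which 90% passed, 58.6% rose and 31.4% fell past it. The median difference of -8.19 points lies midway between -21.4 in AT1G03070 and 4.99 in AT1G08230. No event of the group is near it, so it shows no lean. The 2 TMT2 events share their skipping reads, and so do the 2 of the AT1G69840 exon. The events that rose were those of TMT2, AT4G19645, AT3G03180, UMAMIT45 and AT1G08230. Those that fell were of AT1G69840, AT5G58510, AT1G03070 and AT1G05030, and AT1G68710 did not pass. Kinase-related genes had 3 events, with ATMAP4K ALPHA1 and AT2G37840 falling, while AT4G30820 did not pass. Genes of transcription or DNA binding had 3, with SNL5 rising and AT4G14385 and TRFL6 falling. Enzymes of metabolism also had 3, of which AT5G57300 and AT3G49645 rose and AT3G13800 fell. Of the 2 genes named for RNA or ribosomes AT1G54217 rose and PPR596 did not pass. Another 8 events of 6 genes belonged to no such group, and the last was the non-coding AT3G27990.

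A list of 36 splice site recognition genes held U1 proteins and their partners, SR proteins, the glycine-rich proteins GRP7 and GRP8, and the U2AF subunits, which bind at the 3′ splice site. None had an alternative 5′ event. Only SR30, an SR protein gene, had an event in any table, in that of intron retention. Their expression was not analysed here. The share of all genes with an event was not computed, so these counts do not show whether the list differs from other genes.

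Of the genes with local events, 7 are also in another table. The retention, alternative 3′ or skipping events of AT3G27990, AT4G30820, AT5G65740, AT1G08230 and AT3G49645 have the same skipping reads as their alternative 5′ events, so they are other readings of the same reads. Those of AT1G03070 and AT1G69840 do not. AT1G69840 retained an intron in 19.0% of 63 mutant reads, against 54.4% of 364 wild-type reads.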

How the data were processed

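Per the submitters' processing notes, reads were aligned with HISAT2 2.0.4 and TAIR10 was the build. Neither the splicing caller nor its counting is stated there or in the labels. The authors deposited, per event, joined read counts and a p-value and FDR, and the FDR was used here only in an alternative selection. Table starts count from 0 and positions are printed from 1. The chromosome names match the TAIR10.1 RefSeq assembly.

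With Python 3.11.15 and SciPy 1.17.1, the 3 joined values were summed, shares, Clopper-Pearson intervals and log2 odds ratios (pseudocount 0.5 reads) computed, and Fisher's exact test run on all 70 rows. The test was checked on simulated reads, drawn independently and with no spread of the share between joined values. That check therefore does not cover the spread seen in the data. Place and proteins come from the RefSeq transcript holding a junction, with the other site put in. Splice site scores are log2 ratios summed over 9 bases (pseudocount 1). The members, lists and tests were chosen with earlier results of these data known. Given in full are, among events with at least 20 reads per genotype, the 12 with the largest differences, and the 3 with most reads. Joined values of other members were added after they were seen. Function groups were assigned by hand from annotated products. No per-sample column was left out. With 1 sample per genotype no count model was run. The sequence of 1 site of an event given in full is not reported here.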

Additional observations from a re-analysis of the deposited data

How the results depend on the processing

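No paired analysis was possible because each genotype is 1 sample. Against 17 higher and 15 lower local events, a minimum of 20 reads in each genotype left 11 higher and 12 lower. An authors' FDR of 0.01 or less left 6 higher and 13 lower. Both settings keep fewer events, and in both the lower events outnumbered the higher ones, so the balance of directions depends on the selection. A gap limit of 5000 or 20000 bases, 10 reads, 1 event per gene and the mean of the joined shares stayed within 1.5 times. In leave-one-out runs over the joined values, 16 to 17 events were higher, 15 to 16 lower, and 20 to 25 passed Fisher's exact test, against 25. Of 105 alternative values for the 15 events given in full none changed direction, and of the 90 with a test 4 lost their call: AT1G05030, ATMAP4K ALPHA1 and 2 listed under SKL1. Leaving out 1 joined value moved the difference by over 1.5 times in events of ATMAP4K ALPHA1 (to -11.9 points), SKL1 (to -58.1 and -21.6 at 192 bases, -23.3 at 734), AT3G27990 (to -13.6), TMT2 (to 57.9 at 189 bases) and AT5G58510 (to -19.4). Depth, at 7 to 1054 mutant reads per event, limits the precision of the shares.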
